A study of Mus musculus and Rattus norvegicus with 36 samples.

Results

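The comparison described here is that of marginal dietary Se (0.05 μg Se/g added) with adequate dietary Se (0.2 μg Se/g added) in mouse liver and in mouse kidney. It asks which mRNAs differ when dietary Se is lowered below the adequate amount without being withheld. Arrays were chosen by their labels, and 12 of the 36 arrays in the series belong to these diets, with 3 per diet in each tissue. All probe sets on the arrays were examined except the controls. All the mice were males of a wild-type colony, mainly of C57 black background, that were born to Se-adequate dams and caged singly after weaning. Every diet was built on the same torula yeast base, to which α-tocopherol acetate and L-methionine were added, and feeding lasted 35 days. Se was added as selenite, at 0.05 μg Se/g in the Se-marginal group and at 0.2 μg Se/g in the Se-adequate group. The remaining mouse group, fed the base without added Se (Se-deficient), has 6 arrays, and its levels are given beside those of the other diets. Both comparisons use the same Se-adequate arrays, so the Se-deficient values are shown for scale and were not used as a separate line of evidence. Whole tissue was used, livers having been perfused before removal, and the mRNA of all cell types in each organ was therefore measured together. The labels do not state whether a liver array and a kidney array of the same number came from one mouse.

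Selenoproteins contain selenocysteine, which is inserted at UGA codons that would otherwise stop translation. When Se is short, the mRNAs of some selenoproteins, such as the cytosolic glutathione peroxidase Gpx1, are known to be degraded, whereas others, such as Gpx4, are spared, and this order of priority is called the selenoprotein hierarchy. Liver takes up dietary Se and secretes selenoprotein P (Selenop), which carries Se to other organs, and kidney proximal tubule takes selenoprotein P up through megalin (Lrp2) and makes the plasma glutathione peroxidase Gpx3. Genes controlled by the transcription factor Nrf2, which include glutathione S-transferases, carbonyl reductases and Nqo1, are the best known genes outside the selenoprotein family that respond to severe Se shortage.

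The tissues matched their labels. In liver the hepatocyte marker Alb averaged 14.83 on the 0.05 arrays and 14.85 on the 0.2 arrays (log2 level, the unit of every level below), and the proximal tubule marker Slc34a1 lay between 5.36 and 5.70 on these arrays. In kidney Slc34a1 lay between 13.39 and 13.73 at 0.05 μg Se/g and between 13.05 and 13.65 at 0.2 μg Se/g. The median level per array was 6.22 to 6.28 in liver and 6.24 to 6.29 in kidney, and arrays of one diet correlated at r = 0.993 to 0.997 in liver and 0.992 to 0.995 in kidney. The tissues were normalized separately, and levels are not compared between them. Single arrays nevertheless stood apart. Liver 0.05 replicate 3 had 152 probe sets more than 2-fold above its group's other arrays, and kidney 0.05 replicate 1 had 124. The 7 macrophage and Kupffer cell markers summed to 65.44, 64.03 and 72.93 on the liver 0.05 arrays, against 61.46, 64.88 and 65.74 on the liver 0.2 arrays, so that replicate 3 alone lay above the Se-adequate range. The 7 hepatocyte markers summed to 50.22, 52.49 and 50.58 on the kidney 0.05 arrays, against 51.65, 57.26 and 51.29 on the kidney 0.2 arrays. Replicate 2 of the Se-adequate kidneys was the high one.

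At this sample size the Se-marginal diet did not separate from the Se-adequate diet at any single probe set. Of 45037 probe sets, limma called 0 in liver (0%) and 0 in kidney (0%) at an adjusted p under 0.05, and the smallest adjusted p was 0.9999 in liver and 1 in kidney. At an unadjusted p under 0.05 there were 878 probe sets in liver (1.95%), 482 higher (1.07%) and 396 lower (0.879%) in Se-marginal liver. Kidney had 1311 (2.91%), 703 higher (1.56%) and 608 lower (1.35%) in Se-marginal kidney. The shares of 1.95% in liver and 2.91% in kidney were below the 0.05 expected without any effect of diet. The probe sets named below are therefore described by their values, and none is called changed. The differences (0.05 minus 0.2, on the log2 scale throughout) had an SD over probe sets of 0.10 in liver and 0.11 in kidney, and 99.8% of them in liver and 99.7% in kidney lay within 0.5 of 0. The precision of a single comparison was similar in both organs, with a 95% interval that reached 0.21 to either side of the difference at the median probe set. In liver 99.4% of intervals, and in kidney 99.3%, excluded a 2-fold difference in either direction, taken one probe set at a time. For a single gene an exact permutation test of 3 arrays against 3 cannot give a p below 0.10. Some genes had no overlap between the diets, meaning that every array of one diet lay above every array of the other. In liver these were 536 of 18193 genes higher (2.95%) and 397 lower (2.18%) in the Se-marginal group. In kidney they were 530 higher (2.91%) and 710 lower (3.9%). A gene without overlap is one that reaches the exact permutation p of 0.10, which counts both directions. Without any effect of diet a share of up to 0.10 of genes would be expected to lack overlap. In each tissue both directions together stayed below that share, so lack of overlap is given below as a description only.

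The direction of the differences moved with the brightness of the gene, and this is the background for all gene groups below. Genes were split by mean level into 5 equal groups. In the brightest group 71.7% of genes had a negative difference in liver, with a median of -0.05, and 73.2% had one in kidney, with a median of -0.06. In the next to dimmest group the shares were 38.1% in liver and 43.3% in kidney. Genes without overlap that were lower at 0.05 μg Se/g made up 4.48% of the brightest group in liver and 5.99% in kidney, whereas those that were higher made up 0.577% and 0.989%. The count of negative members in a group of abundant mRNAs is therefore to be set against these shares. When the arrays of each tissue were normalized again by cyclic loess, which removes trends of this kind, several group medians moved close to 0. Of the 25 gene lists described below, leaving out 1 array turned the sign of the median of 17 in liver and of 12 in kidney.

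**Figure D1:**
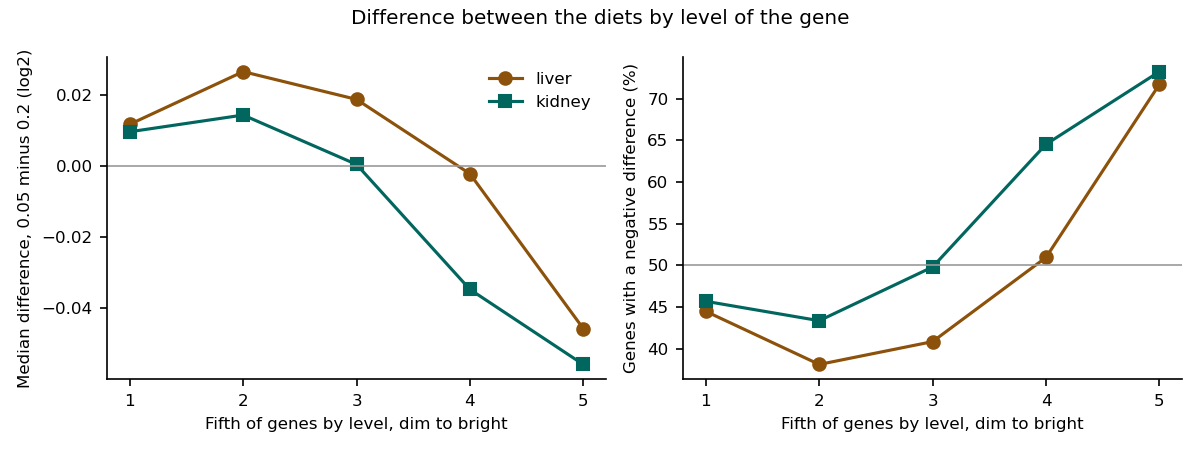
Median difference in log2 level (0.05 minus 0.2 μg Se/g, left) and percent of genes with a negative difference (right) in 5 equal groups of genes ordered by mean level, for liver (circles) and kidney (squares). In both tissues the brightest group lies below 0 in its median (-0.05 in liver, -0.06 in kidney), with over 70% of its genes negative.

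Selenoprotein mRNAs in Se-marginal liver lay close to those of Se-adequate liver. Of 24 selenoprotein genes listed, 23 had a probe set of their own (Dio3 had none), 0 were called, 18 had a negative and 5 a positive difference, and the median was -0.08, against 0.00 over all genes. Of the 23, 14 belong to the brightest of the 5 level groups, and the median was -0.03 after cyclic loess normalization. In liver 4 members had no overlap, all lower at 0.05 μg Se/g (Gpx1, Selenom, Selenop and Selenow, 17.4% of members), beside 2.18% of all genes and 4.48% of the brightest level group. In the plot of selenoprotein differences most of the Se-marginal points lie near 0, and the lowest Se-deficient points lie well to their left.

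Selenow, a small selenoprotein abundant in muscle and brain, had the most negative difference in liver. It measured 11.36, 11.05 and 11.05 on the liver 0.05 arrays, against 11.53, 11.69 and 11.54 on the liver 0.2 arrays. Every Se-marginal array lay below every Se-adequate array. The difference was -0.43 (SE 0.09, 95% interval -0.64 to -0.22, limma adjusted p = 0.9999), which is 1.35-fold lower. The Se-deficient livers measured 9.66, 9.69 and 9.70, a difference of -1.90 from the 0.2 arrays, so the Se-marginal livers lay between the other diets and nearer to the Se-adequate ones. A second probe set of Selenow gave -0.35.

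The glutathione peroxidases, which reduce peroxides with glutathione, differed little in liver. Gpx1 measured 14.08, 14.07 and 14.06 at 0.05 μg Se/g, against 14.12, 14.15 and 14.11 at 0.2 μg Se/g. The diets did not overlap, but the gap was narrow, with a difference of -0.06 (SE 0.07, interval -0.22 to 0.10). In Se-deficient liver Gpx1 measured 12.88, 13.07 and 12.99. The sign of the Gpx1 difference turned to 0.01 after cyclic loess normalization. Gpx4, the phospholipid hydroperoxide glutathione peroxidase, differed by -0.09 (interval -0.28 to 0.09), Gpx2 by -0.12 and Gpx3 by -0.01, each with overlapping diets. Selenop measured 14.25, 14.31 and 14.29 at 0.05 μg Se/g, against 14.32, 14.31 and 14.37 at 0.2 μg Se/g, with a difference of -0.05 that became 0.02 after cyclic loess normalization.

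Thioredoxin reductases, which keep thioredoxin reduced, were on the negative side in liver. Txnrd3 measured 7.38, 7.19 and 6.95 at 0.05 μg Se/g, against 7.79, 7.37 and 7.37 at 0.2 μg Se/g, and one Se-marginal array reached the Se-adequate range. Its difference was -0.34 (interval -0.67 to -0.01, limma adjusted p = 0.9999), it was -0.20 without 0.2 replicate 1, and 1 of its other probe sets had the opposite sign. Txnrd1 differed by -0.18 (interval -0.39 to 0.04) and Txnrd2 by -0.12 (interval -0.33 to 0.09). The type 1 deiodinase Dio1, which activates thyroid hormone, measured 10.32, 10.45 and 10.02 at 0.05 μg Se/g, against 10.72, 10.59 and 10.31 at 0.2 μg Se/g, a difference of -0.27 (interval -0.59 to 0.05) with overlap, which was -0.15 without 0.05 replicate 3 and -0.18 without 0.2 replicate 1. Selenoh and Selenok, a nuclear and an endoplasmic reticulum selenoprotein, were low in Se-deficient liver, by -1.47 and -0.98, but differed by only -0.08 each at 0.05 μg Se/g. Selenoh measured 8.56, 8.25 and 8.53 in Se-marginal liver, against 8.76, 8.44 and 8.38 in Se-adequate liver, and these ranges overlapped. The 5 positive members (Dio2, Selenoi, Selenon, Sephs2 and Msrb1) differed by at most 0.07.

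**Figure D2:**
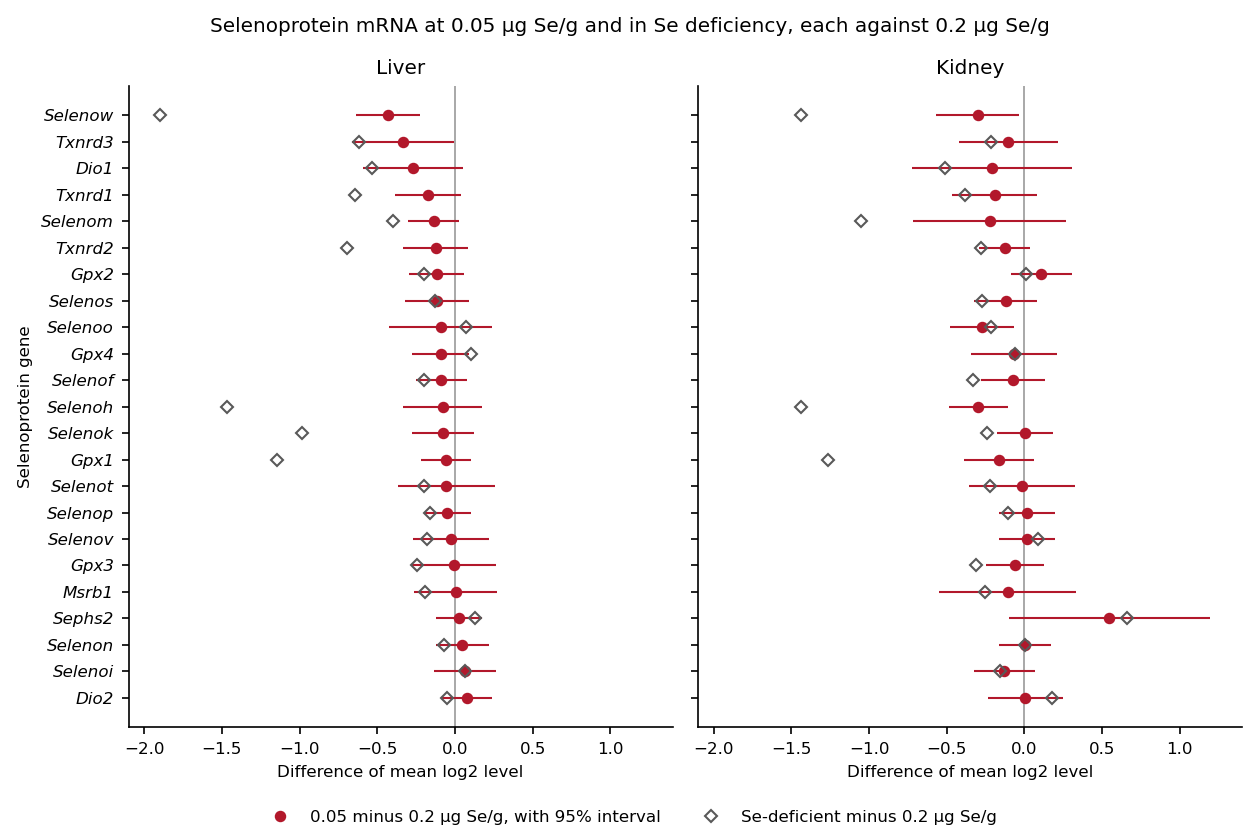
Difference in log2 level from 0.2 μg Se/g for 23 selenoprotein genes in liver and kidney. Filled circles with bars show the 0.05 μg Se/g diet with its 95% interval and open diamonds the Se-deficient diet. Selenow is lowest at 0.05 μg Se/g in liver (-0.43), and Selenow, Selenoh and Gpx1 have diamonds below -1 in both tissues.

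Set against the Se-deficient arrays, some selenoproteins in liver had every Se-marginal array above every Se-deficient array. Sephs2 lay the other way and others overlapped. Selenom, at 5.82, 5.79 and 5.88 in Se-marginal liver and 5.91, 5.91 and 6.09 in Se-adequate liver, lay above its Se-deficient levels of 5.58, 5.56 and 5.56. In kidney too some lay above the Se-deficient arrays and others overlapped. Genes outside this family, such as Lrp2 and Col1a2 in liver, also had every Se-marginal array above every Se-deficient array. The share over all genes is not given for this comparison, so this separation is not read as a result about selenoproteins.

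In kidney the selenoproteins gave a similar count, with Gpx1 shared between the tissues. Of 23 measured, 0 were called, 16 had a negative and 7 a positive difference, and the median was -0.10, against -0.01 over all genes. It was -0.04 without 0.2 replicate 1, -0.07 without 0.05 replicate 2, -0.06 without 0.2 replicate 2 and -0.06 after cyclic loess normalization. In kidney 4 members had no overlap and were lower at 0.05 μg Se/g (Gpx1, Selenoh, Selenoo and Txnrd2, 17.4% of members), beside 3.9% of all genes and 5.99% of the brightest level group. Of the 23, 12 belong to that group. Gpx2 had no overlap and was higher.

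Selenoh had the clearest separation in kidney. It measured 8.25, 8.25 and 8.32 on the kidney 0.05 arrays, against 8.55, 8.55 and 8.62 on the kidney 0.2 arrays. The gap between the diets was wider than the spread within either. The difference was -0.30 (SE 0.09, interval -0.49 to -0.11, limma adjusted p = 1), and the Se-deficient kidneys measured 7.31, 7.10 and 6.99. Selenow measured 9.48, 9.30 and 9.45 in Se-marginal kidney, against 9.73, 9.97 and 9.43 in Se-adequate kidney. The lowest Se-adequate kidney lay within the Se-marginal range, the difference was -0.30 (SE 0.12, interval -0.57 to -0.03) or -0.17 without 0.2 replicate 2, and a second probe set gave -0.03. Selenoo, a mitochondrial selenoprotein that transfers AMP to other proteins, measured 8.05, 7.96 and 8.08 at 0.05 μg Se/g, against 8.48, 8.29 and 8.14 at 0.2 μg Se/g, a difference of -0.27 (interval -0.48 to -0.07). Its Se-deficient levels of 8.06, 8.05 and 8.16 were no lower than the Se-marginal ones.

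Gpx1 measured 13.74, 13.59 and 13.60 in Se-marginal kidney, against 13.82, 13.85 and 13.75 in Se-adequate kidney, again without overlap and with a small difference of -0.17 (interval -0.39 to 0.06). Se-deficient kidneys had Gpx1 levels of 12.77, 12.48 and 12.38. Gpx3, which kidney makes for plasma, differed by -0.06 (interval -0.25 to 0.12), and Gpx4 by -0.07. Txnrd2, the mitochondrial thioredoxin reductase, differed by -0.13 without overlap, whereas Txnrd1 differed by -0.19 with overlap and its other 2 probe sets had the opposite sign. Selenom, which lies in the endoplasmic reticulum, measured 8.41, 7.86 and 8.0 at 0.05 μg Se/g, against 8.61, 8.54 and 7.79 at 0.2 μg Se/g. Its diets overlapped widely, although the Se-deficient kidneys lay at 7.40, 7.38 and 6.99. Sephs2, the selenophosphate synthetase that is itself a selenoprotein, measured 13.35, 13.15 and 13.35 in Se-marginal kidney, against 11.98, 12.73 and 13.51 in Se-adequate kidney. The Se-adequate arrays spread widely and overlapped the Se-marginal ones, the difference was 0.55 (interval -0.10 to 1.20), and the other 2 probe sets gave -0.62 and -0.21.

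The machinery that makes and inserts selenocysteine did not stand apart. Of 12 genes measured, which include the SECIS-binding protein Secisbp2 and the elongation factor Eefsec, 8 had a negative difference in each tissue, with a median of -0.04 in liver and -0.09 in kidney and 0 called. Secisbp2 itself differed by -0.07 in liver and by -0.21 in kidney (interval -0.45 to 0.03), where its other probe set gave 0.03. The 7 genes of Se transport and recycling had medians of 0.05 in liver and 0.04 in kidney. The megalin gene Lrp2 and the selenocysteine lyase Scly, which frees Se for reuse, differed by at most 0.07 in size in either tissue. Inmt, a methyltransferase that can methylate Se compounds, measured 13.13, 13.06 and 13.08 in Se-marginal kidney, against 13.32, 13.32 and 13.17 in Se-adequate kidney, a difference of -0.18 without overlap.

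**Figure D3:**
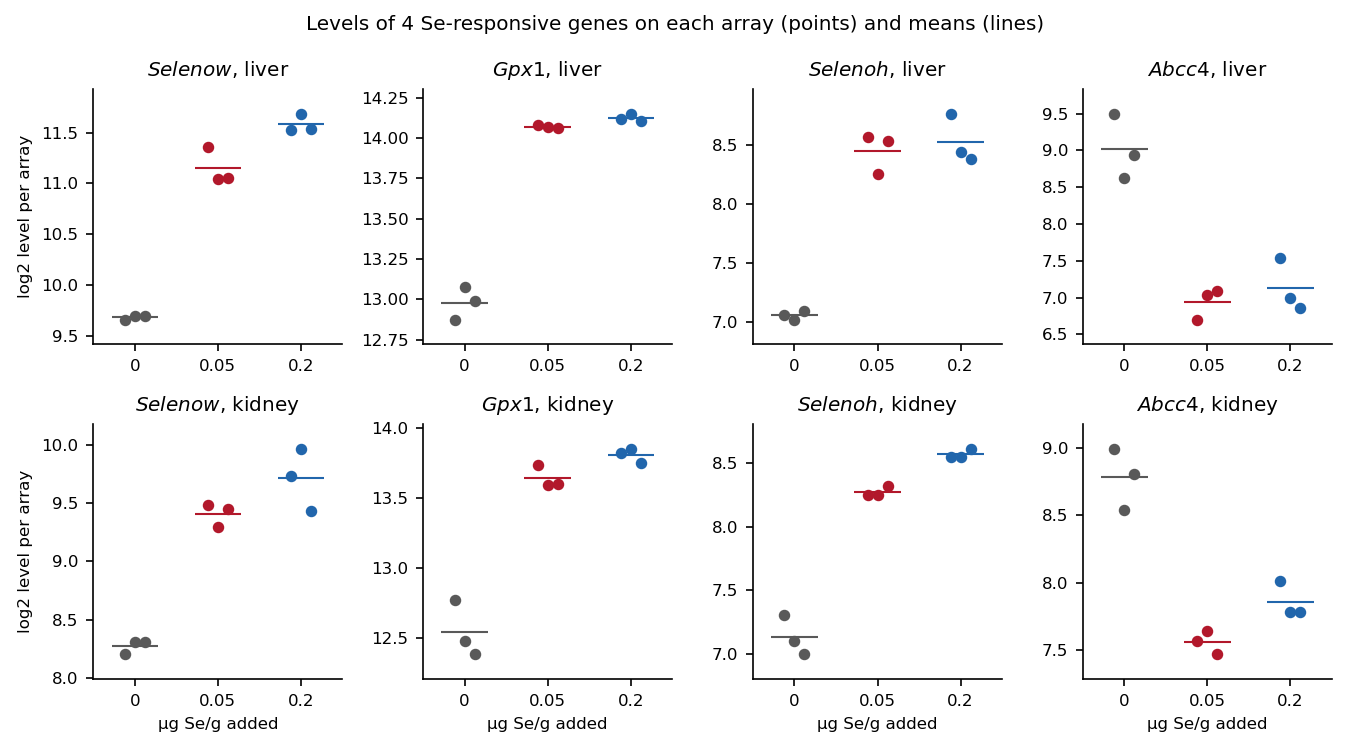
log2 level of Selenow, Gpx1, Selenoh and Abcc4 on each array (points) with group means (lines) in liver and kidney at 0, 0.05 and 0.2 μg Se/g added, 3 arrays per diet. The 0.05 arrays lie near the 0.2 arrays, and the Se-deficient arrays lie apart, below them for the 3 selenoproteins and above them for Abcc4.

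A second group of interest is the 8 genes that the study lists as higher in Se-deficient mouse tissue. The study chose this list on arrays that include the Se-adequate ones used here, so its direction is not independent evidence. None was higher in the Se-marginal mice by the test, and most lay slightly on the opposite side. In liver 6 of 8 had a negative difference with a median of -0.16, which became 0.01 without 0.2 replicate 1 and -0.09 without 0.05 replicate 1. In kidney 8 of 8 were negative with a median of -0.23, which was -0.12 without 0.2 replicate 1, beside 55.3% negative among all genes.

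Gsta2, an alpha-class glutathione S-transferase, showed this most in liver. It measured 10.23, 10.46 and 10.27 at 0.05 μg Se/g, against 11.13, 10.72 and 10.63 at 0.2 μg Se/g. The Se-marginal arrays all lay below the Se-adequate ones, by -0.51 (SE 0.13, interval -0.79 to -0.23, limma adjusted p = 0.9999), while the Se-deficient livers lay above both at 11.69, 11.74 and 11.90. Cbr3, a carbonyl reductase, had the largest Se-deficient difference of this list in liver, with Se-deficient levels of 9.45, 9.06 and 9.62. In Se-marginal liver it measured 6.36, 6.54 and 6.71, against 6.48, 6.25 and 6.57 in Se-adequate liver, with overlap and a difference of 0.10 (interval -0.22 to 0.42). In kidney Cbr3 measured 6.26, 5.90 and 5.95 at 0.05 μg Se/g, against 6.45, 6.45 and 6.31 at 0.2 μg Se/g, without overlap, at -0.37 (interval -0.68 to -0.05).

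Abcc4, a transporter that exports conjugated organic anions, measured 7.56, 7.64 and 7.47 in Se-marginal kidney, against 8.01, 7.78 and 7.78 in Se-adequate kidney. These ranges did not overlap, the difference was -0.30 (interval -0.56 to -0.04), and the Se-deficient kidneys lay on the other side at 8.99, 8.54 and 8.80. In liver Abcc4 differed by -0.19 with overlap (interval -0.68 to 0.31), and by 0.02 without 0.2 replicate 1. The quinone reductase Nqo1 differed by -0.14 in liver (interval -0.42 to 0.14), or 0.002 without 0.2 replicate 1, and by -0.06 in kidney (interval -0.29 to 0.16). Gsta3 and Gsta4, 2 further glutathione S-transferases, differed by -0.19 and -0.27 in liver and by -0.11 and -0.25 in kidney. Gsta4 differed by -0.13 in liver and -0.16 in kidney without 0.2 replicate 1, and Gsta3 had no overlap in liver, at -0.12 without 0.05 replicate 1. Hspb1, a small heat shock protein, differed by 0.12 in liver and by -0.27 in kidney, with overlap in both, and Cbr1 by -0.10 and -0.09.

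The wider list of Nrf2 targets gave no call and no clear direction. Of 27 genes measured, 19 were negative in liver with a median of -0.04, which turned to 0.02 without 0.2 replicate 1 and to 0.00 after cyclic loess normalization. In kidney 18 were negative with a median of -0.09, or -0.05 after cyclic loess normalization. The glutamate cysteine ligase subunits, which limit glutathione synthesis, differed by 0.05 for Gclc and -0.09 for Gclm in liver, and by 0.03 and -0.11 in kidney. Antioxidant enzymes that hold no Se were negative in 12 of 14 cases in liver (median -0.07, or -0.01 after cyclic loess normalization) and in 10 of 14 in kidney (median -0.04, or 0.00 after cyclic loess normalization). Among these, catalase (Cat) differed by -0.11 in liver and 0.15 in kidney, and the mitochondrial peroxiredoxin Prdx3 had no overlap in liver at -0.12.

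The largest positive differences in liver were mostly those of acute phase and immune genes, with 1 or 2 high arrays in each. Of 16 acute phase genes, which hepatocytes express during inflammation, 15 had a positive difference in liver with a median of 0.14, and 0 were called. The serum amyloid gene Saa1 measured 13.25, 11.69 and 13.21 at 0.05 μg Se/g, against 11.18, 11.60 and 11.45 at 0.2 μg Se/g. Every Se-marginal array lay above the Se-adequate arrays, replicate 2 only just, and the difference was 1.30 (SE 0.41, interval 0.39 to 2.22, limma adjusted p = 0.9999). At a second Saa1 probe set the difference was 1.48, but 0.05 replicate 2, at 11.13, lay below 0.2 replicate 2, at 11.20, so the separation held at one probe set only. Its neighbor Saa2, which may share signal with Saa1 because the sequences are alike, measured 11.70, 9.99 and 12.35, against 9.47, 10.11 and 9.81. The iron-binding protein lipocalin 2 (Lcn2) measured 10.43, 7.92 and 10.51 in Se-marginal liver, against 7.85, 8.32 and 8.41 in Se-adequate liver. In both of these genes replicates 1 and 3 of the Se-marginal livers were high and replicate 2 was not. Among the Se-deficient livers Saa1 measured 11.53, 12.86 and 11.76, so a high array occurred in that group too.

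Macrophage markers moved with one of these arrays. All 7 macrophage and Kupffer cell markers had a positive difference in liver with a median of 0.35, which was 0.09 without 0.05 replicate 3. The scavenger receptor Marco measured 7.39, 6.92 and 9.60 at 0.05 μg Se/g, against 6.82, 6.75 and 7.06 at 0.2 μg Se/g. The 7 lymphocyte markers, among them genes of MHC class II presentation, had a median of 0.44, which was -0.09 without the same array. Of these Ptprc, Cd74, H2-Ab1 and H2-Eb1 differed by 0.61, 0.60, 0.54 and 0.44. The others, Cd3e, Cd79a and Ighm, differed by 0.19, 0.08 and -0.33. Cd74, the invariant chain, measured 10.32, 9.83 and 12.29, against 9.59, 10.60 and 10.44. The part of these cells in the liver differences was not tested, and more cells of a type cannot be told apart from more mRNA per cell in whole tissue. The Se-deficient livers also had one array with high macrophage markers, with sums of 60.99, 71.49 and 63.70.

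Of the other liver genes with the largest positive differences and no overlap, Mt2, a metallothionein that binds zinc and copper, measured 8.75, 8.24 and 8.82 at 0.05 μg Se/g, against 8.16, 8.18 and 8.0 at 0.2 μg Se/g. Its difference was 0.49 (interval 0.18 to 0.79), and replicate 2 was again the low Se-marginal array. Itgax, an integrin of dendritic cells, differed by 0.46, or 0.22 without 0.05 replicate 3. Rad51b, a protein of DNA repair, differed by 0.93 because 0.2 replicate 1 was low at 5.28, and by 0.28 without that array, and its other probe set gave 0.10. St8sia4, Traf3ip3, Znf41-ps and Pnrc1 differed by 0.37 to 0.52, and without 0.05 replicate 3 St8sia4 differed by 0.24, Traf3ip3 by 0.25 and Znf41-ps by 0.23. Other probe sets gave 0.08 for St8sia4 and 0.01 and 0.12 for Pnrc1.

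On the negative side Onecut1, a transcription factor of hepatocytes and bile duct cells, had the largest difference without overlap in liver. It measured 8.46, 8.23 and 7.80 in Se-marginal liver, against 8.58, 10.06 and 8.94 in Se-adequate liver. One high Se-adequate array carried much of the difference of -1.03 (interval -1.73 to -0.33), which was -0.60 without 0.2 replicate 2. Foxa2, another hepatocyte transcription factor, measured 9.07, 8.56 and 8.87, against 9.20, 9.77 and 9.24, a difference of -0.57 with the same array high. The immediate early gene Jun differed by -0.49 and the interferon-induced protease Usp18 by -0.42. Ech1, which isomerizes double bonds during fatty acid oxidation, measured 11.59, 11.73 and 11.56 at 0.05 μg Se/g, against 11.77, 12.12 and 12.20 at 0.2 μg Se/g, a difference of -0.40 (interval -0.66 to -0.15). Pwwp2a, a chromatin protein, differed by -0.40, and its other probe set gave 0.01.

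**Figure D4:**
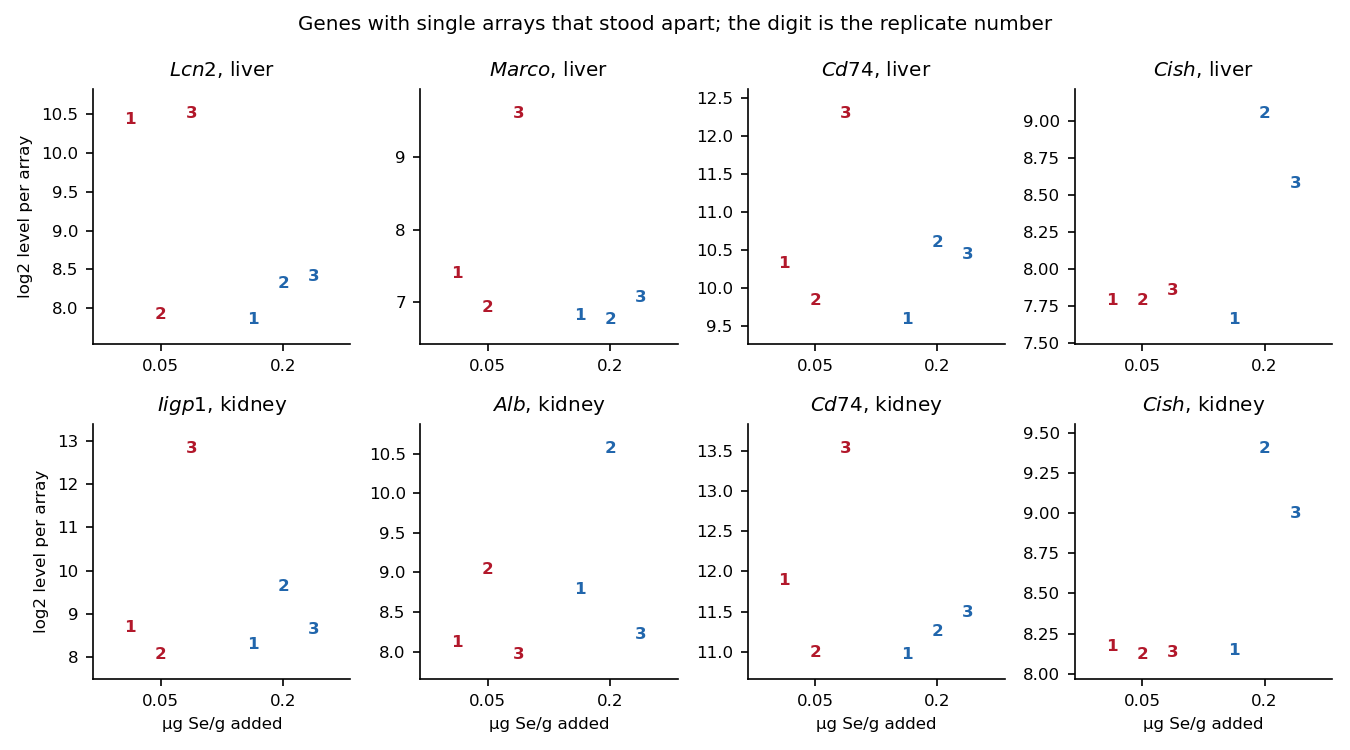
log2 level of 8 gene and tissue pairs at 0.05 and 0.2 μg Se/g added, with each array drawn as its replicate number. Lcn2 is high on liver 0.05 replicates 1 and 3, Marco and Cd74 on replicate 3 of the Se-marginal group, Alb on kidney 0.2 replicate 2, and Cish on 0.2 replicates 2 and 3 of both tissues.

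In kidney the genes with the largest positive differences and no overlap were Sdc4 and H2-D1. Sdc4, a heparan sulfate proteoglycan of the cell surface, measured 12.22, 11.84 and 11.47 at 0.05 μg Se/g, against 10.65, 11.41 and 11.22 at 0.2 μg Se/g. The highest Se-adequate array came close to the lowest Se-marginal one, the difference was 0.75 (interval 0.28 to 1.22, limma adjusted p = 1), and its other probe set gave -0.18. H2-D1, an MHC class I gene, measured 11.83, 11.27 and 12.63, against 11.27, 11.22 and 11.13, a difference of 0.70 that was 0.34 without 0.05 replicate 3, and 2 of its other 8 probe sets were negative. Other positive genes of this kind were Ackr3, a scavenging receptor for chemokines (0.46), Fjx1 (0.45), Csdc2 (0.46), Taf15 (0.50), Snx31 (0.49) and Pdgfd (0.44). The other probe set of Taf15 gave -0.10. Snx31 differed by 0.09 without 0.2 replicate 1, and Pdgfd by 0.25 without 0.05 replicate 1.

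Some immune markers again moved with a single kidney array. Cd74 measured 11.89, 10.99 and 13.53 in Se-marginal kidney, against 10.97, 11.26 and 11.49 in Se-adequate kidney. The lymphocyte marker list had a median of 0.20, or 0.03 without 0.05 replicate 3. In that list Cd74, H2-Ab1, H2-Eb1 and Ptprc differed by 0.90, 0.75, 0.55 and 0.20. Its other members, Cd3e, Cd79a and Ighm, differed by -0.04, -0.18 and 0.02. The interferon-induced GTPase Iigp1 measured 8.68, 8.07 and 12.82, against 8.30, 9.62 and 8.64. Replicate 3 of the Se-marginal kidneys stood far above the rest. The liver array with high immune markers has the same number, and whether both came from one mouse is not stated. Macrophage markers in kidney had a median of 0.01, and the part of immune cells in the kidney differences was not tested.

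The largest negative differences without overlap in kidney were those of Wfdc21, Ywhaz and B330016D10Rik. Wfdc21, a small secreted protein with a whey acidic protein fold, measured 4.70, 4.61 and 4.44 at 0.05 μg Se/g, against 4.82, 5.96 and 4.82 at 0.2 μg Se/g, so the difference of -0.61 rested on one array and was -0.23 without 0.2 replicate 2. That array also had the high hepatocyte markers. Alb measured 8.12, 9.04 and 7.96, against 8.79, 10.56 and 8.21, and the hepatocyte list had a median of -0.17 with 7 of 7 negative, or -0.02 without 0.2 replicate 2. One member of that list, Hnf4a, is also expressed by kidney tubules and averaged 12.18 in Se-marginal kidney, against 12.35 in Se-adequate kidney. Hpx, a heme-binding plasma protein made by liver, differed by -0.64 and by -0.29 without that array. The part of liver mRNA in these differences was not tested. Ywhaz, a 14-3-3 protein, differed by -0.58, or -0.26 without 0.2 replicate 1. Its other 6 probe sets gave -0.60 to 0.61 in kidney, 2 of them positive, so no direction is given for the gene. Tpd52l1 was steadier, at 8.28, 8.02 and 8.05 in Se-marginal kidney, against 8.55, 8.60 and 8.35 in Se-adequate kidney, a difference of -0.38 (interval -0.59 to -0.17). Trio, an exchange factor for small GTPases, Ampd3, an AMP deaminase, and Metrnl, a secreted protein, differed by -0.47, -0.41 and -0.40, but Trio by -0.29 without 0.05 replicate 1 and Metrnl by -0.26 without 0.2 replicate 2. Of the other 5 probe sets of Trio 2 had the opposite sign.

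Differences beyond 2-fold were few and mostly came from the arrays already described. Liver had 13 such probe sets (0.0289%), 8 higher and 5 lower at 0.05 μg Se/g, and 2 of them had no overlap. Kidney had 8 (0.0178%), 5 higher and 3 lower, none without overlap. The counts moved when an array was left out, mostly upward. The liver count was 31 without 0.05 replicate 1, 31 without 0.05 replicate 2, 24 without 0.2 replicate 1 and 20 without 0.2 replicate 3. The kidney count was 24 without 0.05 replicate 1, 44 without 0.05 replicate 2, 5 without 0.05 replicate 3, 13 without 0.2 replicate 1, 14 without 0.2 replicate 2 and 28 without 0.2 replicate 3. Apart from Saa1, Saa2, Lcn2 and Marco, the higher probe sets in liver were those of Cxcl9 and Ubd, which interferon gamma induces and which were high on 0.05 replicate 3 at 11.72 and 9.67, and of the transcriptional repressor Bcl6. Bcl6 measured 7.20, 8.34 and 7.36 in Se-marginal liver, against 7.68, 5.39 and 6.44 in Se-adequate liver. The Se-deficient livers had Bcl6 levels of 7.75, 8.46 and 7.22.

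The lower probe sets in liver, beside Onecut1, shared a pattern over the Se-adequate arrays. These genes are named for their size of difference after their values were seen. Phlda1, a protein with a pleckstrin homology-like domain, measured 9.52, 8.45 and 9.47 at 0.05 μg Se/g, against 9.26, 10.92 and 11.20 at 0.2 μg Se/g. Foxq1, a forkhead factor, measured 4.65, 4.39 and 4.95, against 4.35, 5.98 and 6.80, and Serpina4-ps1 measured 9.33, 9.05 and 8.83, against 9.05, 11.34 and 10.29. Replicates 2 and 3 of the Se-adequate livers were the high arrays in each, and replicate 1 was within or near the Se-marginal range. The Se-deficient livers were low against the Se-adequate ones too. Their differences were -1.69 for Phlda1, -0.91 for Foxq1, -0.98 for Serpina4-ps1 and -0.92 for Onecut1. Cish, a suppressor of cytokine and growth hormone signaling, had the same pattern in both tissues. It measured 7.79, 7.79 and 7.86 in Se-marginal liver, against 7.66, 9.05 and 8.58 in Se-adequate liver. In kidney it measured 8.17, 8.12 and 8.13 at 0.05 μg Se/g, against 8.14, 9.40 and 9.0 at 0.2 μg Se/g. Se-deficient Cish levels were 7.80, 7.46 and 7.76 in liver and 8.17, 8.03 and 8.10 in kidney, near the low arrays. The kidney probe sets beyond 2-fold were 2 of Pigr, the receptor that carries immunoglobulin A across epithelia, 1 each of the interferon-related genes Iigp1, Gbp6 and BC023105, and 3 lower ones with no single gene symbol.

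Among the metabolic lists, all 19 respiratory chain genes had a negative difference in liver, with a median of -0.07. Of these 5 were lower without overlap (26.3%), beside 4.48% of the brightest level group, to which all 19 belong, and the median was 0.00 after cyclic loess normalization. In kidney 17 of 19 were negative with a median of -0.06, which was -0.01 after cyclic loess normalization. Of 13 genes of cholesterol synthesis, 12 were negative in liver, with a median of -0.11, or -0.06 after cyclic loess normalization and -0.07 without 0.2 replicate 2. Among them Idi1, the isopentenyl diphosphate isomerase, measured 11.19, 11.57 and 11.39 in Se-marginal liver, against 11.69, 11.59 and 11.62 in Se-adequate liver, just without overlap, a difference of -0.25 (interval -0.46 to -0.03), or -0.15 without 0.05 replicate 1. The kidney median of this list was -0.02. Fatty acid synthesis had 12 of 14 genes negative in liver with a median of -0.13, which was 0.01 without 0.05 replicate 1, -0.07 without 0.2 replicate 2 and -0.08 after cyclic loess normalization. Its regulator Srebf1 measured 8.71, 8.76 and 8.57 in Se-marginal kidney, against 8.84, 9.12 and 8.86 in Se-adequate kidney, a difference of -0.26 that was -0.17 without 0.2 replicate 2. Cyp7a1, the rate-limiting enzyme of bile acid synthesis, measured 8.62, 9.58 and 8.75 in Se-marginal liver, against 9.89, 9.53 and 9.51 in Se-adequate liver, with overlap and a difference of -0.66 (interval -1.30 to -0.02). Cell cycle genes had a median of 0.10 in liver, which was -0.05 without 0.05 replicate 3.

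Other metabolic and hormonal lists also had 0 calls, and a few members stood out by their values. The methionine cycle list was negative in 9 of 12 genes in each tissue, with medians of -0.03 in liver and -0.05 in kidney, and glutathione supply in 6 of 9, with medians of -0.03 and -0.05. Cth, the cystathionine lyase that makes cysteine, measured 12.18, 12.07 and 11.92 in Se-marginal liver, against 12.43, 12.14 and 12.29 in Se-adequate liver, a difference of -0.23 with overlap (interval -0.44 to -0.02). The list of fatty acid oxidation and PPARα targets was negative in 8 of 11 genes in liver (median -0.12, or -0.07 after cyclic loess normalization) and 5 of 11 in kidney (median 0.02). Its member Cyp4a14, a fatty acid omega-hydroxylase, measured 11.42, 12.11 and 11.34 at 0.05 μg Se/g in liver, against 11.87, 12.21 and 12.36 at 0.2 μg Se/g, with replicate 2 of the Se-marginal group inside the Se-adequate range. Glucose output and insulin response was mixed in liver (5 of 11 negative, median 0.01) and mostly negative in kidney (10 of 11, median -0.10, or -0.03 without 0.2 replicate 1 and -0.05 without 0.05 replicate 2). The insulin receptor Insr measured 8.42, 8.59 and 8.53 in Se-marginal kidney, against 8.61, 8.75 and 8.77 in Se-adequate kidney. These did not overlap, although the 95% interval of the difference of -0.20 reached 0.01, and both other probe sets of Insr were positive, at 0.07 and 0.09.

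Among the 18 cytochrome P450 genes the medians were -0.03 in liver and 0.00 in kidney. Cyp7b1, which hydroxylates oxysterols, measured 10.80, 10.33 and 10.26 in Se-marginal liver, against 10.26, 10.21 and 10.06 in Se-adequate liver, a difference of 0.28 that was 0.12 without 0.05 replicate 1. The growth hormone and male-type list had medians of -0.03 in liver and -0.01 in kidney, and thyroid hormone action -0.04 and -0.13. The clock list had medians of -0.01 in liver and -0.08 in kidney. Nr1d2, a repressor in the clock, measured 9.60, 9.46 and 9.63 in Se-marginal kidney, against 9.74, 9.67 and 10.09 in Se-adequate kidney, without overlap, but its other probe set gave 0.00.

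Stress lists showed the same small sizes. Heat shock genes were negative in 9 of 13 cases in each tissue, with medians of -0.07 in liver and -0.08 in kidney. The unfolded protein and amino acid response list was negative in 11 of 17 genes in liver with a median of -0.05, which was 0.03 without 0.05 replicate 3 and 0.08 without 0.2 replicate 3. In this list 3 dim members were higher without overlap (17.6%), beside 2.95% of all genes. Of these Psat1, an enzyme of serine synthesis, measured 3.83, 4.11 and 4.16 at 0.05 μg Se/g, against 3.53, 3.69 and 3.81 at 0.2 μg Se/g, a difference of 0.36 (interval 0.14 to 0.58) near the bottom of the array's range, and its other probe set gave 0.07. In kidney the median of this list was 0.00. Regulators of Nrf2 had a median of -0.01 in both tissues. Iron and metallothionein genes had medians of 0.04 in liver and -0.01 in kidney, immediate early genes of -0.02 and -0.06, and interferon response genes of 0.03 and 0.06, which were -0.22 in liver and -0.18 in kidney without 0.05 replicate 3 of that tissue. In kidney Gadd45g, a growth arrest gene of the immediate early list, measured 8.80, 8.29 and 8.01 at 0.05 μg Se/g, against 8.94, 9.07 and 8.78 at 0.2 μg Se/g, just overlapping. The cell cycle list had a kidney median of 0.05, and its member Mcm3, a subunit of the replicative helicase, differed by 0.24 without overlap (interval 0.02 to 0.47). This kidney median was -0.01 without 0.05 replicate 3.

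Markers of the remaining cell types had medians between -0.06 and 0.09 in liver and, apart from adipose tissue at -0.17 (0.26 without 0.2 replicate 1), between -0.09 and 0.09 in kidney. These lists covered endothelium, fibroblasts, bile duct, erythroid cells, pancreas, adipose tissue, muscle, adrenal gland, urothelium and the segments of the nephron.

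The genes that lacked overlap in both tissues were few. The count was 25 of 18193 genes lower in both (0.137%), which is 6.25% of the 400 genes lower in liver and 3.59% of the 696 genes lower in kidney. Another 17 were higher in both (0.0934%), which is 3.12% of the 544 genes higher in liver and 3.23% of the 527 genes higher in kidney. Among all genes 2.2% were lower and 2.99% higher in liver, and 3.83% were lower and 2.9% higher in kidney. The shares of genes higher in both were thus near those over all genes. Those of genes lower in both were above the shares over all genes. In the brightest level group, however, 5.99% of genes in kidney and 4.48% in liver were lower without overlap. The levels of the 25 genes were not taken into account. A further 8 were higher in liver and lower in kidney, and 8 the reverse. For these counts the probe set with the highest mean over both tissues stood for a gene. Across the 45037 probe sets the liver and kidney differences correlated at r = 0.11, a description across probe sets that are not independent and may share mice.

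Ech1 led the genes lower in both tissues, at -0.40 in liver and -0.36 in kidney. In kidney it measured 11.45, 11.47 and 11.24 at 0.05 μg Se/g, against 11.65, 11.79 and 11.80 at 0.2 μg Se/g, so in both organs each Se-marginal array lay below all Se-adequate arrays. The Se-deficient kidneys had Ech1 levels of 11.27, 11.46 and 11.33. Pwwp2a followed at -0.40 and -0.30, then Pkig, an inhibitor of protein kinase A, at -0.21 and -0.33, and Timm10, a chaperone of mitochondrial import, at -0.19 and -0.21. Gpx1 was among the 25, at -0.06 and -0.17, and so were Ndufb3, Ndufb7 and Ndufb8 of respiratory complex I, at -0.17, -0.15 and -0.15 in liver and -0.10, -0.12 and -0.07 in kidney. Genes higher in both included Rgs19, a regulator of G protein signaling, at 0.30 in liver and 0.23 in kidney, the adhesion molecule Vcam1 at 0.27 and 0.14, and Tnip1, an inhibitor of NF-κB signaling, at 0.18 and 0.16. No gene of either set was called in either tissue.

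**Figure D5:**
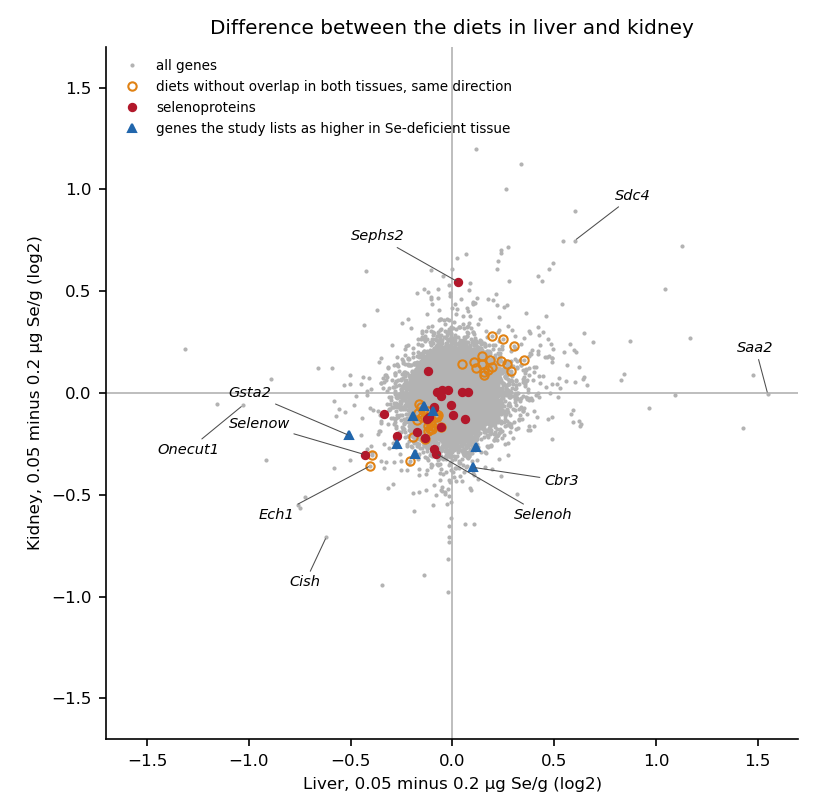
Difference between the diets (0.05 minus 0.2 μg Se/g, log2) in liver on the x axis and in kidney on the y axis for each gene (gray), with selenoproteins (red circles), the 8 genes the study lists as higher in Se-deficient tissue (blue triangles) and genes without overlap in both tissues (orange rings). Most genes lie close to 0 on both axes, and Ech1 and Selenow lie below 0 on both.

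Whether the effect of the Se-marginal diet differed between the organs was tested directly, as the liver difference minus the kidney difference. Of 45037 probe sets limma called 0 (0%), with a smallest adjusted p of 1, and 998 had an unadjusted p under 0.05 (2.22%). The 95% interval reached 0.30 to either side at the median probe set. The smallest p belonged to Sfmbt2, a Polycomb group gene, with a difference of 0.16 in liver and -0.36 in kidney (0.52 between them, interval 0.28 to 0.76). In kidney it measured 4.42, 4.39 and 4.39 at 0.05 μg Se/g, against 4.71, 4.72 and 4.86 at 0.2 μg Se/g, all at low levels, and its other probe set gave 0.04 in kidney. Kalrn, an exchange factor for small GTPases, measured 8.32, 8.50 and 8.44 in Se-marginal kidney, against 7.95, 8.16 and 7.92 in Se-adequate kidney, whereas in liver it measured 7.71, 7.61 and 7.53, against 7.71, 8.14 and 8.11. Its organs differed by -0.78 (interval -1.15 to -0.41) at this probe set. Of its other 7 probe sets 5 had the opposite sign in each tissue, within -0.21 to 0.11 in liver and -0.08 to 0.07 in kidney. Tnfrsf13c, Slc35d3 and Dok5 differed by 0.36, 0.43 and -0.42 between organs, and Mt2 by 0.61 (interval 0.24 to 0.97).

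For the genes most tied to Se the organs could not be told apart. The liver difference of Selenow minus its kidney difference was -0.13 (interval -0.46 to 0.21), that of Selenoh was 0.22 (interval -0.09 to 0.53) and that of Gpx1 was 0.11 (interval -0.15 to 0.37). Selenoh had no overlap in kidney and overlapped in liver, but the interval of the difference between organs includes 0. Cbr3 was the gene of the study's list with an interval that did not include 0, at 0.47 (interval 0.01 to 0.92), and its adjusted p by limma was 1.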

How the data were processed

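RNA from mouse liver and kidney was hybridized to Affymetrix whole-genome mouse arrays. The deposited values are log2 expression levels per probe set, made by the authors for each tissue separately. The submitters' processing notes name GCRMA, whereas the study's methods name RMA, so the background step is not settled. No counts or depths exist for arrays, and 3 arrays per diet limit the precision. The rat arrays of the series were not used here, and 0 columns were left without a sample.

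Of 45101 probe sets, 64 array controls were left out. A single gene symbol was given for 34945 of the 45037 others, 932 had several and 9160 had none, and symbols and Entrez numbers came from the platform annotation. The probe set with the highest mean level stood for each of 18193 genes. The deposited values were fitted with limma 3.58.1 in R 4.3.3, with lmFit and eBayes on the 9 arrays and 3 diets of a tissue, and the contrast was 0.05 minus 0.2 μg Se/g. The liver difference minus the kidney difference was fitted on all 18 mouse arrays. Adjusted p-values are Benjamini-Hochberg over all 45037 probe sets, and an adjusted p under 0.05 was a call. Intervals are 95% intervals of the moderated fit. The fits were checked on simulated arrays with independent noise and planted differences of 2-fold or more. That check does not cover arrays that deviate together, or differences as small as most of those described here.

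Genes were named by rule: selenoproteins, the study's list, up to 15 called genes per tissue (none arose), the 8 largest differences each way without overlap between the diets, and the 6 smallest p-values between tissues. Of every other list, the 2 members with the smallest p in each tissue could also be named. Some further members were named outside this rule to describe a list, and probe sets beyond 2-fold were listed. Members, the 25 gene lists and the 15 marker lists were chosen with earlier results of these data known. Lists are described by counts and medians.

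Arrays that shared a diet and a number across the tissues deviated together, with correlations of 0.116 to 0.249 over probe sets. Same-numbered arrays of different diets within a tissue correlated too, at up to 0.394. The correlations therefore do not show that same-numbered arrays of the tissues came from one mouse. With the liver and kidney array of the same diet and number as a block, the tissue comparison still had 0 calls. P-values measure the spread between these arrays, which the labels give as replicates. Alternatives were a filter on dim probe sets, array weights, a replicate block, leaving out each array and, chosen after seeing the data, cyclic loess normalization within each tissue.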

Additional observations from a re-analysis of the deposited data

How the results depend on the processing

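No probe set was called in liver, kidney or the comparison of the tissues under any alternative run. The smallest adjusted p by limma was 0.12 in liver (without 0.05 replicate 2), 0.309 in kidney (without 0.2 replicate 1) and 0.125 between tissues (without liver 0.05 replicate 2). Counts at an unadjusted p under 0.05 moved more. In liver they were 3908 with array weights, 331 of the 22519 brighter probe sets after the filter, and 601 to 2029 when 1 array was left out, the highest without 0.05 replicate 1. In kidney they were 3242 with array weights, 577 after the filter and up to 3035 without 0.2 replicate 3. Between tissues they were 2789 with array weights, 319 after the filter and 1625 without kidney 0.2 replicate 3. Probe sets beyond 2-fold numbered 31 in liver and 30 in kidney with array weights, and 9 to 31 in liver and 5 to 44 in kidney when 1 array was left out. Among named genes without overlap, or with a 95% interval that left out 0, the sign turned in 2 refits, both after cyclic loess normalization, for Gpx1 (0.0107) and Selenop (0.0192) in liver, a setting built to remove trends with level. Within a tissue, same-numbered arrays of different diets correlated at 0.394, -0.027 and 0.211 in liver and 0.384, 0.026 and 0.167 in kidney. Arrays numbered 1 and 3 thus went together across the diets in both tissues, and those numbered 2 did not. What same-numbered arrays shared was not tested. With the array number as a block across the diets, 1816 probe sets in liver and 1646 in kidney had an unadjusted p under 0.05 by limma. Between tissues the block was the diet and number together, and 1152 probe sets had one. In each of these fits 0 were called. Over all named genes the sign of the difference turned in 26 of 1153 refits in liver, 33 of 1236 in kidney and 79 of 1222 between tissues.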

Other observations

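Adipose tissue markers differed by array in kidney. Adipoq, a hormone of fat cells, measured 5.45, 5.34 and 4.80 at 0.05 μg Se/g, against 6.79, 4.40 and 4.87 at 0.2 μg Se/g. Ucp1, the uncoupling protein of brown fat, measured 6.39, 7.07 and 6.16, against 8.35, 5.77 and 6.05. Replicate 1 of the Se-adequate kidneys was the highest array for both. The signal of the 3′ minus the 5′ control probe set of Gapdh, a measure of RNA integrity, was 0.19, 0.34 and 0.45 on the kidney 0.05 arrays and 0.30, 0.60 and 0.41 on the kidney 0.2 arrays, with overlapping ranges. In liver it was 0.26, 0.23 and 0.18 at 0.05 μg Se/g and 0.22, 0.19 and 0.22 at 0.2 μg Se/g. The same measure for Actb was 0.51, 0.66 and 0.86 on the kidney 0.05 arrays and 0.79, 1.07 and 0.88 on the kidney 0.2 arrays. These ranges overlapped only because 0.05 replicate 3 lay above 0.2 replicate 1. In liver the Actb values were 0.70, 0.51 and 0.44 at 0.05 μg Se/g and 0.56, 0.47 and 0.57 at 0.2 μg Se/g. The part of RNA integrity in the differences was not tested.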
